A study of Saccharomyces cerevisiae with 40 samples.

Results

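Yeast cells make and break down trehalose with the products of 7 genes, and these genes were followed here across steady-state RNA, newly made RNA and ribosome footprints. The 7 genes were chosen by the function of their products, but with earlier results of these data known. They are part of 7127 genes counted for steady-state and labeled RNA and 6613 genes counted for ribosome profiling. All 7 had at least 15 counts over the libraries of each comparison and were tested in all of them. In steady-state RNA scaled to library size all 7 were higher in cells without *DEF1* than in WT cells, by most for the neutral trehalase gene *NTH1* and the synthase subunit gene *TSL1*. In WT cells the labeled RNA of *TPS1* and *TSL1* rose and then fell during 90 min of labeling, while in *def1Δ* cells no fall was called.

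Trehalose is a sugar of 2 joined glucose units that yeast stores, and that protects proteins and membranes during heat and drying. The synthase complex holds Tps1, which joins glucose from UDP-glucose to glucose 6-phosphate, and Tps2, which removes the phosphate, together with the related large subunits Tps3 and Tsl1, which have a regulatory role. Nth1 and Nth2 are the neutral trehalases, which split trehalose in the cytosol, and Ath1 is the acid trehalase, which acts at low pH. Many genes of this pathway are known targets of the general stress response, in which the activators Msn2 and Msn4 bind the stress response element (STRE).

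All samples were W303 cells grown in YPD, a rich medium with glucose, to log phase. Steady-state total RNA came from untreated WT and *def1Δ* cells, with 2 replicates per strain. Def1 is a regulator of RNA polymerase II, and its gene was replaced by a KanMX cassette. For RATE-Seq the same strains were given 4-thiouracil (4tU), a uracil analog that enters new RNA, for 6, 9, 12, 24 or 90 min before transfer to cold methanol. Of 20 labeled samples 18 were analysed here, 2 per strain and time except at 12 min, with 1 per strain. For Ribo-Seq, WT, *def1Δ* and *dhh1Δ* cells were treated with cycloheximide, snap-frozen and milled. Dhh1 is an RNA helicase that promotes mRNA decapping, and its mutant is labeled as a knockout. Input RNA of the lysate gave 3 libraries per strain, and ribosome-protected footprints gave 3 columns each for WT and *def1Δ*.

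Library totals ranged from 9954503 to 14243535 counts for the 4 total RNA libraries, from 6026474 to 16318100 for the 18 labeled libraries, from 14894073 to 45654269 for the 9 input libraries and from 4397482 to 8635312 for the 6 footprint columns. *DEF1* had 2 counts in each *def1Δ* total RNA library, against 997 and 1959 in WT, and 4.76 to 7.48 CPM in *def1Δ* input RNA, against 790 to 995 CPM in WT. *DHH1* was not at 0 in the *dhh1Δ* input libraries, with 65.0 to 85.1 CPM against 216 to 305 in WT (log2 fold change -1.77). CPM are counts scaled to the library total and multiplied by 1000000, adjusted here by edgeR's TMM factors. A gene was called when its adjusted p was under 0.01 and its log2 fold change was beyond 1 in either direction, and all fold changes given here come from quasi-likelihood fits in edgeR, with p-values adjusted over all genes by the Benjamini-Hochberg method.

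The STRE core is the letters CCCCT, which read AGGGG on the other strand. Both were searched in the 500 bases before each start codon, in the RefSeq sequence of the R64 assembly. *TPS1* (YBR126C, chromosome II 488905 to 490392, minus strand) had 6 cores, *TSL1* (YML100W, chromosome XIII 70624 to 73920, plus strand) had 5, and *TPS2* (YDR074W, chromosome IV 593893 to 596583, plus strand) had 4. *NTH1* (YDR001C, chromosome IV 450220 to 452475, minus strand) had 3, *TPS3* (YMR261C, chromosome XIII 790205 to 793369, minus strand) had 2, and *ATH1* (YPR026W, chromosome XVI 615379 to 619014, plus strand) had 1. No core was in the window of *NTH2* (YBR001C, chromosome II 238941 to 241283, minus strand). Each gene has 1 coding exon and no intron in its coding region. Of 6006 windows of the same length before the coding regions of the genome, 34.1% held at least 1 core, 8.18% at least 2, 1.83% at least 3 and 0.45% at least 4.

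The longest run of cores that lie no more than 30 bases apart is shown for each gene that has a core, with 10 bases on each side, since the runs differ in number, spacing and strand. Capitals mark the STRE core, each sequence is written 5′ to 3′ on the strand of its gene, and positions are counted back from the start codon. With the flanking bases, the stretch of *TPS1* spans -315 to -225 (chrII:490617-490707, minus) and holds 4 cores. Those of *TSL1* (-189 to -151, chrXIII:70435-70473, plus) and *TPS2* (-451 to -407, chrIV:593442-593486, plus) hold 2 each. Those of *TPS3* (-245 to -203, chrXIII:793572-793614, minus) and *NTH1* (-360 to -328, chrIV:452803-452835, minus) also hold 2 each. That of *ATH1* (-314 to -290, chrXVI:615065-615089, plus) holds its only core, which starts at -304.
TPS1: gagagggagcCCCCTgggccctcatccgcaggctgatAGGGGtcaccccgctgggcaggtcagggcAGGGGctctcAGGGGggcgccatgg
TSL1: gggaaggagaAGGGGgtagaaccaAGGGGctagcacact
TPS2: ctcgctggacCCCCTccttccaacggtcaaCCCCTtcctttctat
TPS3: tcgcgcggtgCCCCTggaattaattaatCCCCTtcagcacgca
NTH1: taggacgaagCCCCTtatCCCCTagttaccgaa
ATH1: ctcttctttgCCCCTcaaaatttat
In this stretch of *TPS1* 1 core reads CCCCT and 3 read AGGGG along the gene's strand, the run of *TSL1* holds AGGGG only, and the runs of *TPS2*, *TPS3* and *NTH1* and the core of *ATH1* hold CCCCT only.

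The post-diauxic shift element (PDS), which is bound by Gis1 and was searched as TTAGGGAT or TAAGGGAT on both strands, was found once, at -471 of *ATH1*. It was present in 2.6% of all windows. A match describes the letters only and does not show binding, and a window without a match says nothing of other sequence.

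**Figure D1:**
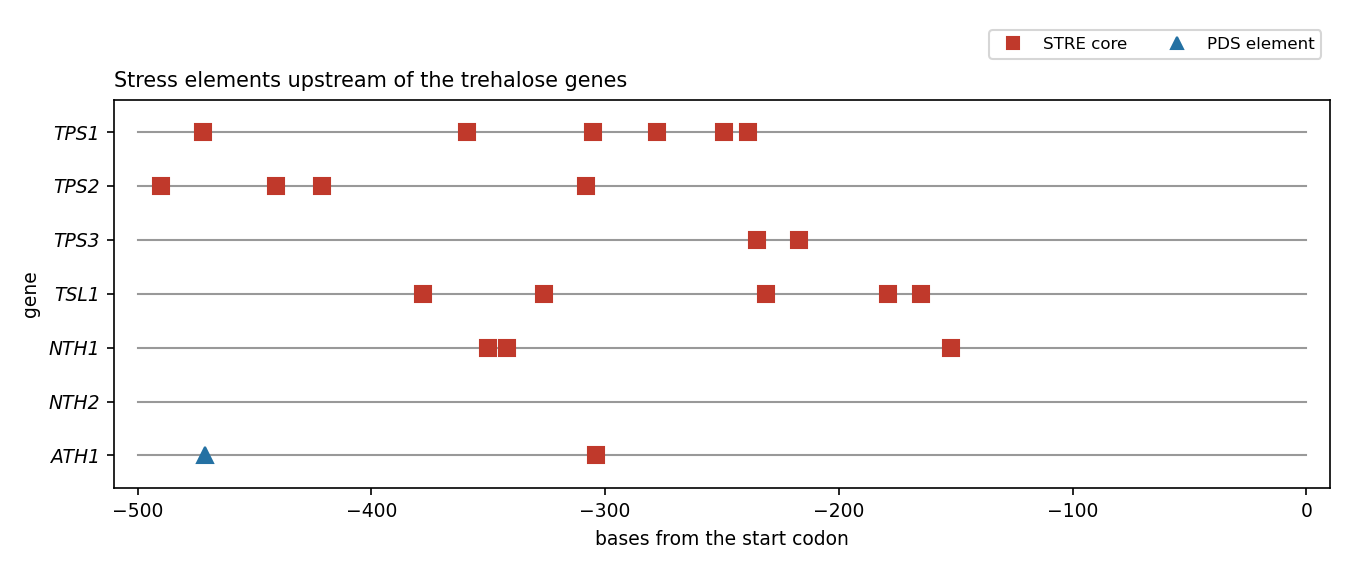
Positions of the STRE core (squares) and the PDS element (triangle) in the 500 bases before the start codon of each trehalose gene, in bases from the start codon. *TPS1* has 6 cores and *NTH2* has none, and the only PDS element is at -471 of *ATH1*.

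In steady-state total RNA, all 7 genes rose in *def1Δ* cells, while 8.72% of the 6055 genes tested were called higher and 9.68% were called lower. The median log2 fold change was 1.40 over the 7 genes and 0.04 over all genes tested. In bulk samples such as these, more RNA per cell and more cells that express a gene cannot be told apart. The summed level of the 7 genes was 366 and 374 CPM in the WT libraries and 1423 and 1468 CPM in the *def1Δ* libraries.

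Among the synthase genes, *TSL1* changed most. *TSL1* was at 108 and 113 CPM in WT and at 672 and 691 CPM in *def1Δ*. Its log2 fold change was 2.62 (standard error 0.15, adjusted p = 1.9e-05 by edgeR). *TPS3*, its close relative, was at 82.9 and 81.3 CPM in WT and at 178 and 172 CPM in *def1Δ*, a log2 fold change of 1.09 (standard error 0.12). The catalytic subunits lay between these values. *TPS1* went from 84.6 and 74.6 CPM in WT to 191 and 198 CPM in *def1Δ*, a log2 fold change of 1.29 (standard error 0.13). *TPS2* went from 43.2 and 48.4 CPM to 131 and 144 CPM, a log2 fold change of 1.58 (standard error 0.14). Where strains are said below not to overlap, the share of all genes without overlap was not counted. Such statements describe the libraries and are not a test.

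The trehalase genes rose as well. *NTH1* was at 25.5 and 30.7 CPM in WT and at 190 and 200.2 CPM in *def1Δ*, and its log2 fold change of 2.79 (standard error 0.15, adjusted p = 1.4e-05 by edgeR) was the largest of the 7. *NTH2*, the paralog of *NTH1*, was at 10.3 and 10.4 CPM in WT and at 27.2 and 27.5 CPM in *def1Δ*, a log2 fold change of 1.40 (standard error 0.14). *ATH1* was at 10.6 and 15.6 CPM in WT and at 34.9 and 33.8 CPM in *def1Δ*, a log2 fold change of 1.38 (standard error 0.18, adjusted p = 4.8e-04 by edgeR). Genes that make trehalose and genes that split it were thus higher in the same cultures.

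Per kb of coding sequence, which allows levels to be compared between genes, the order of the genes was not the same in both strains. In WT the mean level was 53.5 CPM per kb for *TPS1*, 33.6 for *TSL1*, 26.0 for *TPS3*, 17.0 for *TPS2*, 12.5 for *NTH1*, 4.43 for *NTH2* and 3.61 for *ATH1*. In *def1Δ* the level of *TSL1* (207 CPM per kb) was above that of *TPS1* (131), and that of *NTH1* (86.5) was above those of *TPS3* (55.3) and *TPS2* (51.1), while *NTH2* (11.7) and *ATH1* (9.44) stayed lowest. The replicates of neighboring genes did not overlap in either order, though *NTH2* and *ATH1* in WT were nearly level, at 4.41 to 4.44 and at 2.93 to 4.28 CPM per kb. Differences between genes in how well their fragments are sequenced were not measured.

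How many genes were called in total RNA depended on the scaling. With the *S. pombe* spike-in factors of the study none of the 7 genes was called by edgeR, 2 had an unadjusted p under 0.05, and 0.0165% of all genes were called higher. The factors differed more between the WT replicates than between the *def1Δ* replicates, and standard errors were 1.02 to 1.13. All 7 log2 fold changes were still above 0, from 0.73 for *TPS3* to 2.51 for *NTH1*, beside an all-gene median of -0.29. Without *def1Δ* replicate 1 the calls of *TPS3* and *ATH1* were lost, and without replicate 2 those of *TPS1*, *TPS3* and *ATH1* were lost, with log2 fold changes from 1.07 to 1.41 for these genes.

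**Figure D2:**
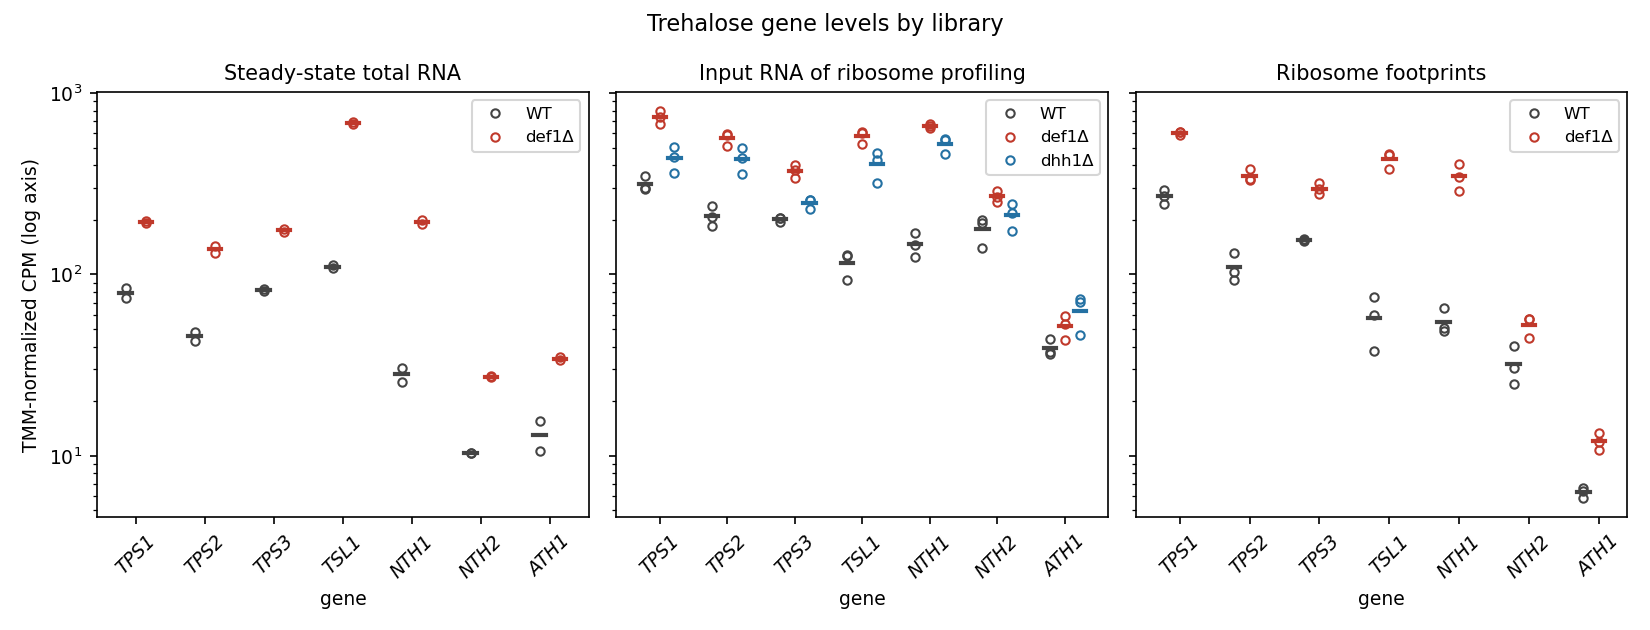
TMM-normalized CPM (log axis) of each trehalose gene in each library of steady-state total RNA, input RNA and ribosome footprints, with circles for libraries and bars for the mean of a strain. In total RNA the 2 *def1Δ* libraries lie above the 2 WT libraries for all 7 genes, and *ATH1* input RNA is the case in which *def1Δ* and WT overlap.

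Genes around the trehalose pathway were counted as lists in the same total RNA test. Of 6 genes that supply glucose phosphates and UDP-glucose, 3 rose and none was called lower (list median 0.96). These were the hexose kinase genes *HXK1* (log2 fold change 1.72) and *GLK1* (3.30) and the phosphoglucomutase gene *PGM2* (2.08), whereas *HXK2*, *PGM1* and *UGP1* were not called, at 0.19, -0.60 and -0.41. Of 8 genes that act on the neutral trehalases, 2 rose (list median -0.12), namely *DCS1* (1.28) and *DCS2* (2.02), which are scavenger decapping genes linked to neutral trehalase activity. The 14-3-3 genes *BMH1* and *BMH2*, which encode activators of Nth1, were not called (-0.29 and -0.28), nor was any other gene of that list. None of the 4 genes of STRE and PDS regulation was called, with *MSN2* at 0.13, *MSN4* at 0.26, *GIS1* at 0.37 and *RIM15* at 0.53. The trehalose transporter gene *MAL11*, at 0.71, was not called either. With spike-in factors no gene of these lists was called by edgeR.

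Marker genes of culture state were counted in the same test. The 7 general stress genes (*HSP12*, *HSP26*, *CTT1*, *DDR2*, *HSP104*, *SSA4* and *ALD3*) were all called higher in *def1Δ* total RNA, with a median log2 fold change of 2.60, and their summed level was 52.6 to 63.9 CPM in WT and 447 to 475 CPM in *def1Δ*. Of 7 glucose-repressed genes 2 were called higher, *ADH2* and *JEN1*. The list median was 0.63 and the lowest log2 fold change was -0.38. The sum of the 7 was 102 to 113 CPM in WT and 133 to 135 CPM in *def1Δ*. With spike-in factors none of these 14 markers was called. None was at 0 in a total RNA library. Their part in the trehalose gene results was not tested.

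RATE-Seq followed how much of each transcript was captured as labeled RNA. The libraries were compared after scaling by the labeled *S. pombe* spike-in, which keeps changes of the whole labeled pool, and again after TMM scaling, which sets the median gene near 0. The levels given here are TMM-scaled CPM. After 6 min of labeling, which is the time closest to synthesis, *NTH1* and *TPS2* were the genes of the 7 called higher in *def1Δ*, while 18.5% of all genes were called higher with spike-in scaling and 10.9% with TMM. *NTH1* was at 77.3 and 60.2 CPM in WT and at 222 and 225 CPM in *def1Δ*, a log2 fold change of 1.99 (standard error 0.33) with spike-in and 1.70 with TMM scaling. *TPS2* was at 127 and 113 CPM in WT and at 290.2 and 268 CPM in *def1Δ*, a log2 fold change of 1.53 with spike-in and 1.22 with TMM scaling. For both genes the strains lay far apart.

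The other genes differed less at 6 min. *TSL1*, the gene with one of the largest steady-state changes, was at 262 and 246 CPM in WT and at 350.3 and 285 CPM in *def1Δ*, a log2 fold change of 0.64 (adjusted p = 0.10 by edgeR). *TPS1* was at 120.5 and 119 CPM in WT and at 144 and 146 CPM in *def1Δ* (0.60), and *TPS3* was at 185 and 169 CPM in WT and at 240 and 230.3 CPM in *def1Δ* (0.72). The replicates of these genes did not overlap between strains, yet the differences did not pass the test. *NTH2* was at 67.5 and 64.8 CPM in WT and at 109 and 102 CPM in *def1Δ*, and its log2 fold change of 1.00 fell just under the fold cutoff (adjusted p = 0.0051 by edgeR). *ATH1* overlapped between the strains, with 81.1 and 82.3 CPM in WT and 94.4 and 72.1 CPM in *def1Δ*. Without WT replicate 1 the log2 fold changes of *TPS3* (1.12) and *NTH2* (1.35) were larger. The all-gene median was then 0.62, against 0.27 with both replicates.

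At 9 min the same genes, *NTH1* (1.62) and *TPS2* (1.37), were called higher, as were 19.8% of all genes with spike-in and 13.4% with TMM scaling. *TPS1* and *TSL1* were nearly level between the strains, with log2 fold changes of 0.08 and 0.17, and both turned slightly negative with TMM scaling, at -0.12 and -0.03. Without WT replicate 2, *NTH1* alone was called at 9 min.

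At 24 min the result depended on the scaling. With spike-in factors 6 of the 7 genes were called higher in *def1Δ*, but so were 46.5% of all genes, and the all-gene median was 1.04. *ATH1*, at 0.54, was the exception. With TMM scaling, *NTH1* (1.69) and *TPS2* (1.23) were called higher, as were 14.8% of all genes. At this time *TSL1* was at 497 and 451 CPM in WT and at 561 and 405 CPM in *def1Δ*, so the strains overlapped on that scale.

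At 90 min all 7 genes were called higher with spike-in scaling, where 51.7% of all genes were called higher and the all-gene median was 1.18. With TMM scaling 6 were called higher, as were 15.6% of all genes. The TMM-scaled log2 fold changes were 2.83 for *NTH1*, 2.28 for *TPS2*, 2.13 for *TSL1*, 1.98 for *TPS1*, 1.15 for *TPS3* and 1.10 for *NTH2*, and *ATH1* was not called, at 0.25. *TSL1* was at 175 and 121 CPM in WT and at 687 and 608 CPM in *def1Δ*, and *TPS1* was at 122 and 104 CPM in WT and at 445 and 448 CPM in *def1Δ*. The strains lay far apart for both genes at this time.

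The difference between the strains grew from 6 to 90 min for 5 of the 7 genes with spike-in scaling, where 21.2% of all genes were called in this direction and the all-gene median was 0.85. The growth on the log2 scale was 2.69 for *TSL1* (adjusted p = 5.3e-07 by edgeR), 2.57 for *TPS1* (1.7e-06), 2.04 for *NTH1*, 1.96 for *TPS2* and 1.61 for *TPS3*. *NTH2* (1.29, adjusted p = 0.013) and *ATH1* (1.08, adjusted p = 0.036) did not pass. With TMM scaling, where the all-gene median was 0.00 and 5.83% of genes were called in this direction, *TSL1* (1.80), *TPS1* (1.70), *NTH1* (1.13) and *TPS2* (1.07) were called.

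**Figure D3:**
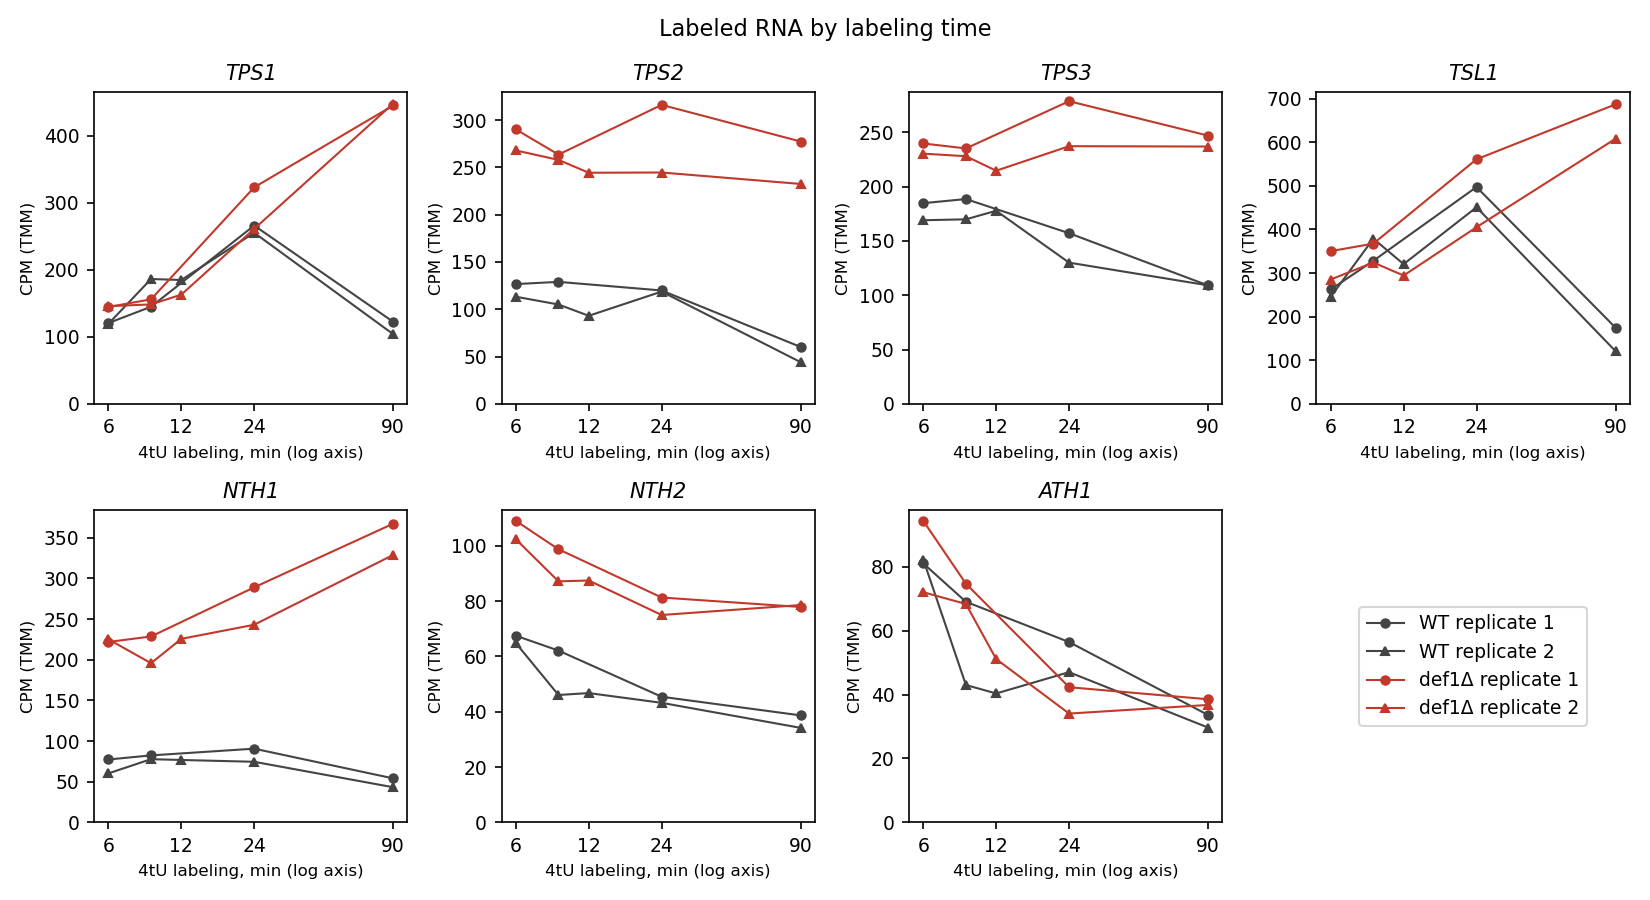
TMM-normalized CPM of labeled RNA for each trehalose gene against minutes of 4tU labeling (log axis), with a line per strain and replicate. *TPS1* and *TSL1* are higher at 24 min than at 6 min in all 4 series and lower at 90 min than at 24 min in both WT replicates, while both *def1Δ* replicates are higher at 90 min than at 24 min.

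The time courses within a strain were compared after they had been seen, in the same fit. In WT, *TPS1* rose from 120.5 and 119 CPM at 6 min to 145 and 186 at 9 min and to 266 and 255 at 24 min, and was back at 122 and 104 CPM at 90 min. *TSL1* rose from 262 and 246 CPM at 6 min to 328 and 379 at 9 min and to 497 and 451 at 24 min, and was at 175 and 121 CPM at 90 min. For *TSL1* the 90 min values thus lay below those at 6 min in both replicates. Between 6 and 24 min *TPS1* (1.49) and *TSL1* (1.28) were the genes of the 7 called higher in WT, as were 22.2% of all genes, and with TMM scaling, where 13.6% of all genes were called higher, *TPS1* (1.12) kept its call while *TSL1* (0.90) did not. The *TSL1* call was also lost without 24 min WT replicate 1 and without 6 min WT replicate 2, which left 1 gene.

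From 24 to 90 min 5 of the 7 genes fell in WT with spike-in scaling, where 8.94% of all genes were called lower and the all-gene median was -0.35. The log2 fold changes were -2.11 for *TSL1*, -1.62 for *TPS1*, -1.61 for *TPS2*, -1.20 for *NTH1* and -1.14 for *ATH1*, and *TPS3* (-0.83) and *NTH2* (-0.69) did not pass. The WT replicates differed on this scale, with all-gene medians of -0.72 in replicate 1 and 0.12 in replicate 2. In these replicates *TSL1* changed by -2.32 and -1.80, *NTH1* by -1.55 and -0.68, and *TPS3* by -1.34 and -0.15. With TMM scaling, where 4.31% of all genes were called lower, *TSL1* (-1.68), *TPS1* (-1.20) and *TPS2* (-1.19) were called. With spike-in scaling 1 gene of the 7 was still called without 90 min WT replicate 2, and 3 were called without 90 min WT replicate 1 or without 24 min WT replicate 1. *TPS2* was at 120 and 119 CPM at 24 min, near its 6 min level, and was at 60.1 and 44.1 CPM at 90 min.

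In *def1Δ* cells no such fall was called. *TPS1* rose from 144 and 146 CPM at 6 min to 323 and 261 at 24 min, and was at 445 and 448 CPM at 90 min. From 6 to 24 min 5 genes were called higher with spike-in scaling, among 45.8% of all genes, and with TMM scaling *TPS1* (1.01) was the only one of the 7 called higher, among 9.14% of all genes. *ATH1* (-1.12) was called lower on that scale, among 12.9% of all genes. Without 6 min *def1Δ* replicate 1 or 2, 3 genes were called with spike-in scaling, *TPS1*, *TSL1* and *NTH1*. From 24 to 90 min none of the 7 genes was called in either direction by edgeR, where 3.51% of all genes were called, and none had an unadjusted p under 0.05 with spike-in scaling. With TMM scaling, where 5.40% of all genes were called, none of the 7 was called either, though 3 had an unadjusted p under 0.05, and *TPS1* was at 0.61 (adjusted p = 0.0022) and *TSL1* at 0.42.

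The change from 24 to 90 min was compared directly between the strains. It was larger in *def1Δ* than in WT by 2.32 on the log2 scale for *TSL1* (adjusted p = 2.7e-05 by edgeR) and by 2.01 for *TPS1* (adjusted p = 4.8e-04), and these were the genes of the 7 that were called, while 3.39% of all genes were called in this direction. With TMM scaling *TSL1* (2.10), *TPS1* (1.82), *NTH1* (1.15) and *TPS2* (1.05) were called, while 7.79% of all genes were called in this direction. With spike-in scaling the *TPS1* call did not hold in some fits with a library left out. Without 24 min WT replicate 2 the median difference of the 7 genes was 1.58, beside 0.44 over all genes. Without 24 min WT replicate 1 these were 0.77 and -0.30, against 1.25 and 0.13 with all libraries. The 7 general stress genes had a summed level in WT of 141 to 156 CPM at 6 min, 773 to 811 CPM at 24 min and 214 to 246 CPM at 90 min, and in *def1Δ* of 238 to 268 CPM, 335 to 358 CPM and 898 to 946 CPM at these times. The heat shock gene *HSP104* made up 574 and 578 CPM of the WT sum at 24 min. The part of these markers in the *TPS1* and *TSL1* time courses was not tested.

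Genes around the pathway were counted in the same labeled RNA tests, with spike-in scaling. At 6 min 1 of the 6 supply genes, none of the 8 trehalase regulation genes and 2 of the 4 genes of STRE and PDS regulation were called higher. The list medians were 0.50, 0.41 and 0.98 beside 0.27 over all genes. At 90 min these counts were 5 of 6, 8 of 8 and 4 of 4, with medians of 2.29, 2.41 and 1.62 beside 1.18 over all genes. The shares of all genes called higher were 18.5% at 6 min and 51.7% at 90 min. With TMM scaling the counts were 0 of 6, 0 of 8 and 1 of 4 at 6 min, beside 10.9% of all genes, and 3 of 6, 5 of 8 and 1 of 4 at 90 min, with medians of 1.10, 1.21 and 0.43, beside 15.6% of all genes. Among the genes called at 90 min with spike-in scaling were *HXK1* (4.06), *PGM2* (3.82) and *GLK1* (2.98), which also rose in total RNA, while *MAL11* was called at 6 min (1.77) and not at 90 min (0.98). The 7 general stress genes were all called higher at 90 min (median 3.20), and 2 of them were at 6 min. With TMM scaling 5 of these 7 were called at 90 min (median 1.99) and 1 at 6 min.

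The ratio of counts of related genes within a library does not depend on the scaling. *TSL1* counts were 1.42 and 1.45 times *TPS3* counts in WT at 6 min, 3.17 and 3.47 times at 24 min and 1.60 and 1.11 times at 90 min. In *def1Δ* the same ratio was 1.46 and 1.24 at 6 min, 2.01 and 1.71 at 24 min and 2.78 and 2.57 at 90 min. The strains were thus close at 6 min, WT was above *def1Δ* at 24 min, and *def1Δ* was above WT at 90 min. *NTH1* counts were 1.15 and 0.929 times *NTH2* counts in WT at 6 min, 2.00 and 1.72 times at 24 min and 1.40 and 1.26 times at 90 min. For this pair *def1Δ* was above WT at each of these times, with 2.03 and 2.20 at 6 min, 3.56 and 3.24 at 24 min and 4.72 and 4.19 at 90 min.

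In *def1Δ* the rise of labeled RNA with time was described by the rate at which it approached a plateau, fitted to the spike-in scaled counts. The rate was 0.0441 per min for *TPS1*, 0.0623 for *TSL1* and 0.0808 for *NTH1*, which were the slowest of the 7 and below the median of 0.136 over 5659 genes with a rate in *def1Δ*. *TPS3* (0.136) and *TPS2* (0.152) were near that median, and *NTH2* was at 0.222. In each replicate alone the rates were 0.0441 and 0.0441 for *TPS1*, 0.0641 and 0.0660 for *TSL1* and 0.0720 and 0.0933 for *NTH1*. *ATH1* had no rate in replicate 1, and its labeled RNA did not rise from 6 to 24 min (log2 fold change -0.08). With TMM-scaled CPM the rates were 0.0454 for *TPS1*, 0.0831 for *TSL1*, 0.148 for *NTH1* and 0.542 for *TPS3*, and the other 3 genes had none. The TMM-scaled median was 0.121 over 3250 genes with a rate, so that *NTH1* lay above it on that scale. No WT rates are compared, because a model that only rises cannot describe the fall after 24 min.

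Input RNA of the ribosome profiling experiment allowed a comparison of *def1Δ* and *dhh1Δ* with WT in another experiment. Both contrasts use the same 3 WT libraries. In *def1Δ*, *TSL1*, *NTH1*, *TPS2* and *TPS1* rose, which is 4 of the 7 genes, as did 5.80% of the 6434 genes tested. In *dhh1Δ*, *NTH1*, *TSL1* and *TPS2* rose, as did 6.42% of all genes. The summed level of the 7 genes was 1146 to 1261 CPM in WT, 1953 to 2570 CPM in *dhh1Δ* and 3115 to 3358 CPM in *def1Δ*.

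*TSL1* input RNA was at 126, 128 and 92.8 CPM in WT, at 523, 601 and 609 CPM in *def1Δ* and at 470.2, 427 and 321 CPM in *dhh1Δ*. Its log2 fold change was 2.32 (standard error 0.18) in *def1Δ* and 1.81 (standard error 0.17) in *dhh1Δ*. The 3 strains did not overlap and stood in the order WT, *dhh1Δ*, *def1Δ*. *TPS1* was at 296, 349 and 300.2 CPM in WT, at 676, 794 and 737 CPM in *def1Δ* and at 507, 446 and 361 CPM in *dhh1Δ*. Its log2 fold change was 1.22 (adjusted p = 1.1e-04 by edgeR) in *def1Δ* and 0.47 (adjusted p = 0.023) in *dhh1Δ*, where it was not called. The replicates of *TPS1* kept the same order of strains without overlap.

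*TPS2* was at 239, 208 and 185 CPM in WT, at 597, 590 and 514 CPM in *def1Δ* and at 495.5, 438 and 360.2 CPM in *dhh1Δ*, and its log2 fold change was 1.43 in *def1Δ* and 1.03 in *dhh1Δ*. The *dhh1Δ* call of *TPS2* lies near the cutoff and was lost without WT replicate 3 (0.94), without *dhh1Δ* replicate 1 (0.92) and with upper-quartile scaling (0.93). *TPS3* differed less, with 195, 205 and 204 CPM in WT, 340, 378 and 404 CPM in *def1Δ* and 258, 259 and 231 CPM in *dhh1Δ*. Its log2 fold change was 0.89 in *def1Δ*, under the fold cutoff with an adjusted p of 1.0e-04 by edgeR, and 0.31 in *dhh1Δ*.

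*NTH1* was at 169, 145 and 125 CPM in WT, at 659, 646 and 676 CPM in *def1Δ* and at 552, 557 and 461 CPM in *dhh1Δ*. Its log2 fold change was 2.17 (standard error 0.14, adjusted p = 2.5e-06 by edgeR) in *def1Δ* and 1.84 (standard error 0.13, adjusted p = 4.0e-06) in *dhh1Δ*, and the strains did not overlap. *NTH2* was at 192, 141 and 200.5 CPM in WT, at 267, 289 and 252 CPM in *def1Δ* and at 219, 245 and 173 CPM in *dhh1Δ*. It was not called in either mutant (0.60 and 0.26), and its WT and *dhh1Δ* replicates overlapped. *ATH1* was at 44.3, 36.5 and 37.6 CPM in WT, at 53.3, 59.4 and 43.5 CPM in *def1Δ* and at 70.3, 72.9 and 46.6 CPM in *dhh1Δ*, and it was not called in either mutant (0.40 and 0.68).

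The mutants were also compared with each other. None of the 7 genes was called between *def1Δ* and *dhh1Δ* by edgeR, where 4.52% of all genes were called, and 5 of the 7 had an unadjusted p under 0.05. *TPS1* was higher in *def1Δ* by 0.75 on the log2 scale (standard error 0.14, adjusted p = 0.0037) and *TPS3* by 0.59 (standard error 0.10, adjusted p = 0.0024), both under the fold cutoff. The difference was 0.51 (standard error 0.17) for *TSL1*, 0.39 for *TPS2*, 0.34 for *NTH1*, 0.34 for *NTH2* and -0.28 for *ATH1*. The general stress markers stood in another order of strains, with a summed input level of 554 to 648 CPM in WT, 1285 to 1858 CPM in *def1Δ* and 2477 to 2892 CPM in *dhh1Δ*, and the glucose-repressed markers were at 112 to 133, 115 to 126 and 168 to 177 CPM. None of the 14 markers was at 0 in an input library, and their part in these results was not tested.

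In the same input RNA, the genes of the supply list that rose were again *HXK1*, *GLK1* and *PGM2*, at 1.81, 1.66 and 1.60 in *def1Δ* and at 1.87, 1.40 and 1.89 in *dhh1Δ*. *DCS1* (1.32 and 1.54) and *DCS2* (1.83 and 2.58) rose in both mutants, as did *MSN4* (1.45 and 1.12), which encodes an STRE activator, while *MSN2*, *GIS1* and *RIM15* were not called. The list medians in *def1Δ* were 1.09 for supply, 0.34 for trehalase regulation and 0.22 for STRE and PDS regulation, beside -0.01 over all genes. In *dhh1Δ* they were 0.85, 0.08 and 0.35, beside -0.01.

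**Figure D4:**
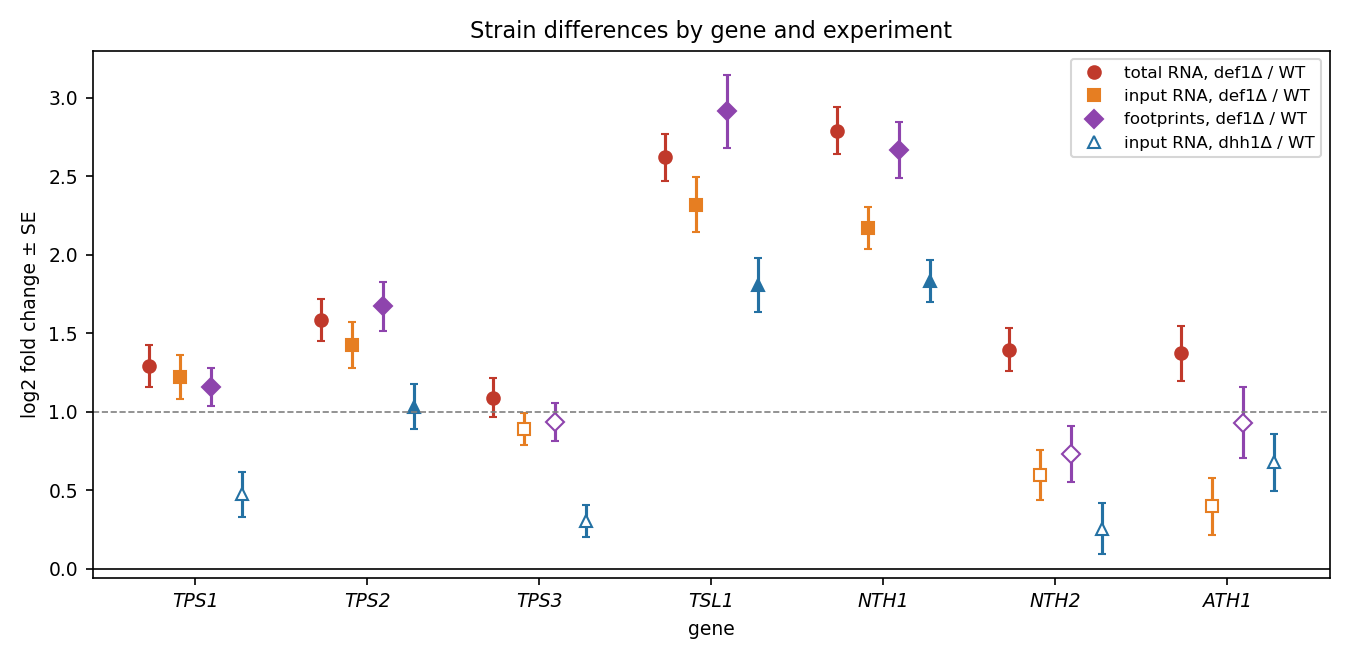
Log2 fold change against WT of each trehalose gene, with bars for 1 standard error, in total RNA, input RNA and footprints of *def1Δ* and in input RNA of *dhh1Δ*. Filled symbols are called and open symbols are not, and *NTH1*, *TSL1* and *TPS2* are filled in all 4 comparisons.

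Ribosome footprints report on the RNA that is being translated. Whether the footprint columns come from separate cultures is not known, which limits the standard errors and p-values here and for translational efficiency. The same 4 genes rose as in *def1Δ* input RNA. These were *TSL1* (2.92, standard error 0.23), *NTH1* (2.67, standard error 0.18), *TPS2* (1.67) and *TPS1* (1.16), while 6.46% of the 5601 genes tested rose. *TSL1* was at 60.1, 75.1 and 37.7 CPM in WT and at 383, 458 and 463 CPM in *def1Δ*. *NTH1* was at 65.0, 48.9 and 50.5 CPM in WT and at 347, 408 and 289 CPM in *def1Δ*. The lowest *def1Δ* column of both genes thus lay far above the highest WT column. *TPS1* was at 269, 293 and 246 CPM in WT and at 609, 585 and 613 CPM in *def1Δ*. *TPS2* was at 132, 104 and 93.3 CPM in WT and at 334, 379.8 and 334 CPM in *def1Δ*. The strains did not overlap for these catalytic subunits either.

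The other 3 genes did not reach the fold cutoff in footprints, with *TPS3* at 0.94 (adjusted p = 2.6e-04 by edgeR), *ATH1* at 0.93 (0.0084) and *NTH2* at 0.73 (0.0090). *TPS3* was at 155, 158 and 153 CPM in WT and at 296, 318 and 277 CPM in *def1Δ*. *NTH2* was at 40.3, 30.6 and 25.0 CPM in WT and at 56.7, 56.6 and 44.7 CPM in *def1Δ*. For both genes the columns of the strains did not overlap. *ATH1* had few footprints, with 34 to 50 counts per WT column and 56 to 75 per *def1Δ* column, so that counting error is large for this gene. That is 5.87 to 6.61 CPM in WT and 10.8 to 13.3 CPM in *def1Δ*. Of the supply genes *HXK1* (2.02), *GLK1* (1.84) and *PGM2* (2.45) rose in footprints, as did *DCS1* (1.12), *DCS2* (2.62) and *MSN4* (1.15). The summed general stress level in footprints was 485 to 931 CPM in WT and 2029.8 to 2781 CPM in *def1Δ*, and its part was not tested.

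Translational efficiency, the change in footprints relative to the change in input RNA, was not called for any of the 7 genes by edgeR, where 0.156% of all genes were called. The values ranged from -0.10 for *TPS1* to 0.55 for *TSL1* (standard error 0.28, adjusted p = 0.37), with 0.46 for *NTH1*, 0.49 for *ATH1*, 0.21 for *TPS2*, 0.10 for *NTH2* and 0.01 for *TPS3*, beside an all-gene median of -0.08. DESeq2 called none of the 7 either. None of the 7 genes had an unadjusted p under 0.05 by edgeR, with standard errors of 0.17 to 0.28, and 3 of them did by DESeq2.

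The size of the *def1Δ* difference was compared between the total RNA and the input RNA experiments. It was not called as different for any of the 7 genes, where 3.42% of all genes were called. The difference was largest for *ATH1* (1.00, adjusted p = 0.028 by edgeR), *NTH2* (0.81, adjusted p = 0.039) and *NTH1* (0.63, adjusted p = 0.065), all higher in total RNA, and was 0.08 to 0.32 for the 4 synthase genes. These experiments were counted by different pipelines, and the cells of one were treated with cycloheximide.

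The balance within the paralog pairs moved with the strain in total RNA, input RNA and footprints. In total RNA, *TSL1* counts were 1.31 and 1.39 times *TPS3* counts in WT and 3.78 and 4.01 times in *def1Δ*. In input RNA the ratio was 0.454 to 0.648 in WT, 1.51 to 1.59 in *def1Δ* and 1.39 to 1.82 in *dhh1Δ*, and in footprints it was 0.246 to 0.477 in WT and 1.30 to 1.68 in *def1Δ*. Input RNA and footprints thus had fewer *TSL1* than *TPS3* counts in WT and more in *def1Δ*, as did input RNA in *dhh1Δ*. *NTH1* counts were 2.47 and 2.95 times *NTH2* counts in WT total RNA and 6.98 and 7.27 times in *def1Δ*. In input RNA the ratio was 0.625 to 1.03 in WT, 2.23 to 2.69 in *def1Δ* and 2.27 to 2.66 in *dhh1Δ*. The proteins of *TPS3* (1054 residues) and *TSL1* (1098 residues) are identical at 56.6% of 1041 aligned positions and their coding sequences share no run longer than 15 bases. Those of *NTH1* (751 residues) and *NTH2* (780 residues) are identical at 77.4% of 748 positions and share a run of 33 bases, so that some short footprints could come from either gene.

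Across the 31 libraries of total, labeled and input RNA, centered within each experiment, the 7 genes did not all share a pattern. The correlation of a gene with the mean of the other 6 was 0.939 for *TPS2*, 0.932 for *NTH1*, 0.928 for *TPS3*, 0.854 for *NTH2* and 0.847 for *TSL1*, and it was lower for *TPS1* (0.629) and *ATH1* (0.467). The genes outside the pathway most like their mean, of 3691 compared by Pearson's r, were *GID11* (YLR149C, 0.950), which encodes a substrate receptor of a ubiquitin ligase, the citrate synthase gene *CIT1* (YNR001C, 0.933), the lactate dehydrogenase gene *CYB2* (YML054C, 0.932), *SDS24* (YBR214W, 0.931) and the vitamin B6 synthesis gene *SNZ1* (YMR096W, 0.925). These values describe libraries that share strains, times and scaling, and are not a test.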

How the data were processed

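For total and labeled RNA the authors mapped reads with STAR to R64 and deposited RSEM 1.2.28 estimated counts per gene, which were rounded to whole numbers (the 7 genes had no fractions). For ribosome profiling the authors deposited whole counts. HISAT2 and featureCounts are named in the submitters' notes, with roles not given in the sources used here. Footprint columns could be tied to a strain but not to a labeled run. The 3 *dhh1Δ* footprint columns outnumber the samples labeled so and were not used here, and the 12 min libraries of replicate 1 were not analysed here.

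Each fit kept genes whose libraries summed to 15 counts or more, tested with edgeR 4.0.16 (R 4.3.3, DESeq2 1.42.0 as an alternative). Total RNA, input RNA and footprints were scaled by TMM. Labeled RNA was fitted over 18 libraries with spike-in factors, recovered as the ratio of deposited counts to the study's normalized reads over 952 to 1241 genes per library. For likeness, genes needed a mean of at least 100 counts in each experiment and log2(CPM + 0.5) was used. Approach rates were chosen by least squares among 400 values between 0.0001 and 10 per min.

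The text names the 7 genes, *DEF1*, *DHH1*, genes of the lists and the 5 genes most like the mean pattern. Genes and lists were chosen with earlier results of these data known. Scripts were tested on simulated data, with Python 3.11.15, numpy 2.4.6, pandas 2.3.3, Biopython 1.88 and matplotlib 3.10.9. Alternatives covered scaling, tool, count filters, the replicate number as a block, a fit per labeling time and each library left out. The p-values rest on the spread between these samples, and whether the footprint columns come from separate cultures is not known.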

Additional observations from a re-analysis of the deposited data

Results flagged for a closer look

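The strain difference in labeled RNA changed between labeling times for 5 genes, by edgeR's test of the difference with Benjamini-Hochberg adjustment. With spike-in scaling it grew on the log2 scale from 6 to 90 min by 2.57 for *TPS1*, 1.96 for *TPS2*, 1.61 for *TPS3*, 2.69 for *TSL1* and 2.04 for *NTH1*. Of all genes 21.2% were called in this direction, with a median of 0.85, and with TMM scaling *TPS3* was not called. From 24 to 90 min the difference grew by 2.01 for *TPS1* and 2.32 for *TSL1*, a contrast chosen after the data had been seen. In that contrast 3.39% of all genes were called in this direction. The cause was not tested.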

How the results depend on the processing

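Of 485 alternative values for 51 called results of the 7 genes, 434 kept direction and call, 51 lost the call and 0 changed direction. Of 481 alternatives for 46 results that were not called, 458 stayed so, 9 passed and 14 changed direction. The cause was not tested. Members called in total RNA numbered 7, 0 with spike-in factors and 4 to 7 with a library left out. TMM scaling of labeled RNA gave 2 instead of 6 at 24 min, 1 instead of 2 for WT from 6 to 24 min, 3 instead of 5 lower for WT from 24 to 90 min, 1 instead of 5 for *def1Δ* from 6 to 24 min, and 4 instead of 2 for the 24 to 90 min difference. With a library left out these counts were 2 to 4 at 6 min, 1 to 2 at 9 min, 4 to 7 at 24 min, 4 to 7 for the 6 to 90 min difference, 2 to 3 for *dhh1Δ* input RNA, 1 to 3 for WT from 6 to 24 min, 1 to 7 for WT from 24 to 90 min, 3 to 5 for *def1Δ* from 6 to 24 min and 1 to 5 for the 24 to 90 min difference.

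With a library left out the all-gene median moved as well. It ran from 0.02 to 0.62 at 6 min and from -0.30 to 0.44 for the 24 to 90 min difference. Directions changed for *TPS1* at 9 min (-0.12 with TMM, -0.15 to 0.35 with a library left out), *TSL1* at 9 min (-0.0316 with TMM) and *ATH1* at 24 min (-0.44 with TMM). They also changed for the translational efficiency of *TPS1* (0.0161 with DESeq2), *TPS3* (-0.0019 with no filter, -0.0616 to 0.13 with a library left out) and *NTH2* (-0.0528 to 0.38), and for the total and input RNA comparison of *TPS1* (-0.0105 to 0.18).

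Over all genes, total RNA had 528 higher and 586 lower calls, against 1 and 12 with spike-in factors, and 255 and 143 or 206 and 101 without *def1Δ* replicate 1 or 2. TMM changed 3025 higher and 127 lower calls to 965 and 808 at 24 min, 3360 and 116 to 1011 and 864 at 90 min, 1201 and 285 to 707 and 627 at 6 min, 1284 and 492 to 869 and 740 at 9 min, and 1376 and 8 to 379 and 214 for the 6 to 90 min difference. It changed 1440 and 539 to 883 and 1054 for WT and 2976 and 25 to 594 and 841 for *def1Δ* from 6 to 24 min, 47 and 581 to 238 and 280 for WT and 50 and 178 to 242 and 109 for *def1Δ* from 24 to 90 min, and 220 and 49 to 506 and 461 for the difference of these. The 24 min libraries alone gave 1826 and 52. DESeq2 called 61 higher and 7 lower for translational efficiency, against 9 and 1. Upper-quartile factors gave 287 and 373 instead of 373 and 262 for *def1Δ* input RNA, 342 and 249 instead of 413 and 168 for *dhh1Δ*, 307 and 316 instead of 362 and 229 for footprints, and 136 and 74 instead of 118 and 103 for total against input RNA.

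Replicate numbers showed no consistent pairing on TMM-scaled values. Same-numbered libraries correlated at 0.0422 in total RNA, at -0.0457 to 0.298 in labeled RNA and at -0.672 to 0.600 in input RNA. In input RNA the values of replicates 1 and 3 were all positive, from 0.116 to 0.600. With the replicate number as a block, 7 of the genes were called in total RNA, 3 at 6 min, 3 at 9 min, 6 at 24 min, 7 at 90 min, 6 for the 6 to 90 min difference, 2 for the 24 to 90 min difference, and 4, 3 and 0 in the input RNA contrasts. In footprints *ATH1* had 34 to 75 counts per column, which limits its precision.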
